A study of Mus musculus with 18 samples.

Results

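Trpm1, Cpa3, Ankrd33b, Adamts20, Nrcam, Pdk4, Nos1ap, Neto1, Tg and Tbc1d4 are 10 of the 17738 genes counted in cultured mouse CD8+ T cells. They were chosen by their counts in culture: near or at 0 after infection with the control retrovirus RV-GFP and higher after infection with a retrovirus for Nr4a1 (Nr4a1-OV), some of them also being lower in cultured cells labelled Nr4a1 KO. Their values in those contrasts chose them and are given as a description, without a test. The study made RNA sequencing libraries of mouse CD8+ T cells to follow what the nuclear receptor NR4A1 does in T cells of the tumour. In culture, CD8+ T cells carried either the Nr4a1-OV or the RV-GFP virus (2 libraries each). Naive Nr4a1 WT or Nr4a1 KO cells were instead activated on plates coated with antibodies to CD3 and CD28 at 2 ug per mL (2 libraries each). Before RNA was taken, all 8 cultures received PMA and ionomycin for 2 h, a stimulus that acts downstream of the antigen receptor. From tumours, OT-I cells, whose transgenic receptor recognises an ovalbumin peptide, were collected on day 21 as Nr4a1RFP+ or Tim-3+ (2 libraries each, genotype WT), and in a further sort as Ly108+ cells of genotype Nr4a1+/+ or Nr4a1-/-, titled WT or KO (3 libraries each). The day of the Ly108+ sort, the age of the mice, the deletion behind the KO label and the tumour line are not given in the sources used here.

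NR4A1 (Nur77) is an orphan nuclear receptor induced by antigen receptor signalling, which can bind DNA as a monomer at a short element called NBRE. Most of the 10 genes are known from tissues other than T cells: TRPM1 is a cation channel of retinal bipolar cells and melanocytes, CPA3 a carboxypeptidase of mast cell granules, and thyroglobulin (Tg) the precursor protein of thyroid hormone. NRCAM is a neural adhesion molecule of the L1 family, NETO1 an auxiliary subunit of kainate receptors and NOS1AP an adaptor of neuronal nitric oxide synthase. PDK4 is a kinase that inhibits pyruvate dehydrogenase, TBC1D4 a Rab GTPase-activating protein through which AKT controls glucose transporter traffic, and ADAMTS20 a secreted metalloprotease. Ankrd33b encodes an ankyrin repeat protein. On GRCm38 the genes lie apart from each other, Trpm1 at chr7:64153835-64269775, Cpa3 at chr3:20215620-20242181, Nos1ap at chr1:170302668-170589861, Nrcam at chr12:44328885-44601964 and Tbc1d4 at chr14:101442360-101609191. Ankrd33b, Tg and Adamts20 share chromosome 15, starting at 31291478, 66670753 and 94270163.

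The stretches before annotated gene starts were read for 8 of the 10 genes from RefSeq promoters (GRCm38.p6), as 10 windows of 250 bases before to 50 bases after a start. Of these windows 0 held the NBRE letters AAAGGTCA on either strand, against 1.51% of 32851 windows of all genes, and the 46 genes of a wider silent class defined below that had a window also held 0. The shorter core AGGTCA, which is contained in NBRE, stood in 1 of the 10 windows, against 16.3% of all. The 250 bases before 4 starts are shown because they hold a motif found by the search or, for Nrcam, to set a CpG-rich start beside CpG-poor ones, and capitals mark the motif. Trpm1 is printed for its AGGTCA, 19 bases before an internal start (chr7:64185209-64185458, plus strand). Cpa3 is printed for its TATAAA, 31 bases before the start (chr3:20242182-20242431, minus strand), and Nos1ap for its AP-1 site TGANTCA, 24 bases before an internal start (chr1:170557111-170557360, minus strand). Nrcam (chr12:44328635-44328884, plus strand) held none of the motifs.
Trpm1: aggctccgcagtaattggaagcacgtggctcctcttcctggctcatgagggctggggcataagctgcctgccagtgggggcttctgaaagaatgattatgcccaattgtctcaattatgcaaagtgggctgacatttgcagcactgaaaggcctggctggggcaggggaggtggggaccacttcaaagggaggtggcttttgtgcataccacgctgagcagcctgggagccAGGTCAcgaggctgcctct
Cpa3: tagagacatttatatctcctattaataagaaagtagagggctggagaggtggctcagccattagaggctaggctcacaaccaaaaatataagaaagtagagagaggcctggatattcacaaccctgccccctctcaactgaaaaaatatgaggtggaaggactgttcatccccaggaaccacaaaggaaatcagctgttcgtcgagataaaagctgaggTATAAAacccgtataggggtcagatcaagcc
Nos1ap: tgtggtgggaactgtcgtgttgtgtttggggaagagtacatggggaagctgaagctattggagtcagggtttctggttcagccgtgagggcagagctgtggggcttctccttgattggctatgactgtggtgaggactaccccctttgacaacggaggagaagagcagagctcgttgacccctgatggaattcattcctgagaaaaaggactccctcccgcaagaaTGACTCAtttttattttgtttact
Nrcam: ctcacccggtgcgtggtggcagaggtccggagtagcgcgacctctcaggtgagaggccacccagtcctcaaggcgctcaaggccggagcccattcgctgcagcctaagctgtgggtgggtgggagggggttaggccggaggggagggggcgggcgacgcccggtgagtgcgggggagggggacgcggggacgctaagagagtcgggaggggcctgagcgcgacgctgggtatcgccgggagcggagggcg

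TATAAA was found in 8.32% and TGANTCA in 7.81% of all windows, and the CRE letters TGACGTCA in 0 of the 10 and 1.79% of all. CpG pairs numbered 3 in the 300-base window of Cpa3, 6 in the internal one of Trpm1 and 5 in the internal one of Nos1ap, but 37 in that of Nrcam and 41 in that of Adamts20. The windows at the outer starts of Trpm1 and Nos1ap held 2 and 39. Which start these cells used was not tested. The median was 12 over the 10 windows, which ranged from 2 to 41, and 7 over all windows. As the starts in use are not known, no type of start is read from them for the genes. These matches describe letters in a short window and say nothing of binding.

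Each library from culture had a total of 16.8 to 17.1 M counts. Reads recovered from the normalised tumour values came to 17.7 to 24.1 M per library in the Nr4a1RFP+ and Tim-3+ table and 15.2 to 15.8 M in the Ly108+ table. Nr4a1 itself stood at 5223 ± 163 CPM (counts scaled to library size) in Nr4a1-OV, 2092 ± 147 in RV-GFP, 313 ± 33.2 in cultured Nr4a1 WT and 360.1 ± 0.212 in cultured libraries labelled Nr4a1 KO (SD, n = 2 each). The KO label was therefore not matched by less Nr4a1 RNA, and in Ly108+ cells the KO-labelled libraries held more (105 ± 6.43 against 48.4 ± 4.78 RPKM, n = 3 each), so these groups are named by their labels. RPKM scales reads by gene length and library size. Of 7 T cell markers, 7 were listed in every table, at a summed 2650 to 3427 CPM in culture. CD4 and regulatory T cell markers (3 of 3 listed) summed to 278 to 280 CPM in Nr4a1-OV and 13.8 to 14.3 in RV-GFP. Most of the sum was Foxp3 in Nr4a1-OV (257 ± 1.28 CPM, against 3.21 ± 0.453 in RV-GFP). In RV-GFP most of it was Zbtb7b (10.3 ± 0.915 CPM, against 21.2 ± 0.173 in Nr4a1-OV). Cd4 had 10 and 7 counts in each of these groups. Their part in the results was not tested, and in such bulk samples fewer cells of a type and less RNA per cell cannot be told apart. The labels do not say whether replicates were separate cultures or animals, so the p-values rest on the variation among these libraries, which may be technical.

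In RV-GFP cells 4 of the 10 genes had 0 counts in both libraries, and all 10 were higher in both Nr4a1-OV libraries than in both RV-GFP libraries, as 38.7% of all genes were. The choice of genes fixed that count. Trpm1 had 580 and 623 counts in Nr4a1-OV, 5 and 6 in RV-GFP, 433 and 447 in Nr4a1 WT and 36 and 54 in the KO-labelled libraries. It was thus 98.2-fold higher with the Nr4a1 virus than with RV-GFP (95% counting interval 54.7 to 197), and 1.46-fold higher than in antibody-activated WT cells. Cpa3 had 200 and 190 counts in Nr4a1-OV, 0 and 0 in RV-GFP, 13 and 14 in WT and 0 and 2 in KO, which makes it at least 58.3-fold higher with the virus, counting 3 counts per library as the floor. Of 10 mast cell and basophil markers Kit and Hdc were listed. Their sum was 69.0 to 76.4 CPM in Nr4a1-OV, 7.84 to 10.05 in RV-GFP, 7.06 to 10.7 in WT and 32.2 to 42.1 in KO. Nearly all of that sum was Kit, while Hdc stood at 0.323 CPM in Nr4a1-OV, 0.230 in RV-GFP, 0.855 in WT and 1.30 in KO. The part of these markers was not tested. Adamts20 was the lowest per length in Nr4a1-OV, with 51 and 49 counts in Nr4a1-OV, 2 and 0 in RV-GFP, 15 and 8 in WT and 0 and 1 in KO. Its ratio of 44.9 between the viruses therefore had a wide interval (12.1 to 376). These intervals and this floor reflect counting error alone.

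Among the genes known from neurons, Nrcam had 209 and 155 counts in Nr4a1-OV, 0 and 0 in RV-GFP, 14 and 18 in WT and 8 and 8 in KO. Nos1ap had 205 and 221 counts in Nr4a1-OV, 0 and 1 in RV-GFP, 10 and 19 in WT and 4 and 9 in KO. Both were high in the Nr4a1-OV libraries and low in the other groups: at least 54.5-fold above RV-GFP for Nrcam and 382-fold (68.3 to 15138) for Nos1ap, while WT held 12.1-fold and 15.6-fold less than Nr4a1-OV. Neto1 had 88 and 90 counts in Nr4a1-OV, 0 and 0 in RV-GFP, 81 and 90 in WT and 14 and 14 in KO. Unlike Nrcam and Nos1ap, Neto1 was about as high in antibody-activated WT as with the virus (ratio 0.902, interval 0.727 to 1.12).

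Of the genes of fuel use, Pdk4 had 149 and 172 counts in Nr4a1-OV, 0 and 0 in RV-GFP, 0 and 1 in WT and 0 and 0 in KO. It was at least 48.0-fold higher with the virus and at or under the floor in the other 3 groups, so no KO to WT ratio is given. Tbc1d4 had 2299 and 2227 counts in Nr4a1-OV, 84 and 96 in RV-GFP, 546 and 623 in WT and 315 and 382 in KO. It was not silent in any group: it was 22.6-fold higher (19.4 to 26.3) with the Nr4a1 virus than at a level in RV-GFP that was already the highest of the 10 per length (0.766 RPKM by the authors' values). Ankrd33b had 265 and 277 counts in Nr4a1-OV, 13 and 19 in RV-GFP, 21 and 25 in WT and 1 and 2 in KO, a 15.2-fold ratio between the viruses. WT and RV-GFP libraries overlapped for Ankrd33b, and the KO-labelled libraries lay below both.

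Tg, the thyroid hormone precursor, had 1101 and 1156 counts in Nr4a1-OV, 28 and 19 in RV-GFP, 1142 and 1266 in WT and 1882 and 1825 in KO. The WT and Nr4a1-OV libraries overlapped (95% counting interval of their ratio 0.946 to 1.06), and Tg was the only one of the 10 that was higher in both KO-labelled than in both WT libraries (1.60-fold, as 31.0% of all genes were in that direction). Both KO-labelled libraries lay below both WT libraries for 8 of 10 genes, against 33.6% of all genes, and overlapped them for Pdk4. The rule mentions that contrast, so nothing is read from these counts. Both WT libraries were above both RV-GFP libraries for 8 of 10 genes (42.9% of all), which shares the low RV-GFP values that chose them. Nr4a1 RNA was 6.68-fold lower in WT than in RV-GFP, and its part was not tested.

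**Figure D1:**
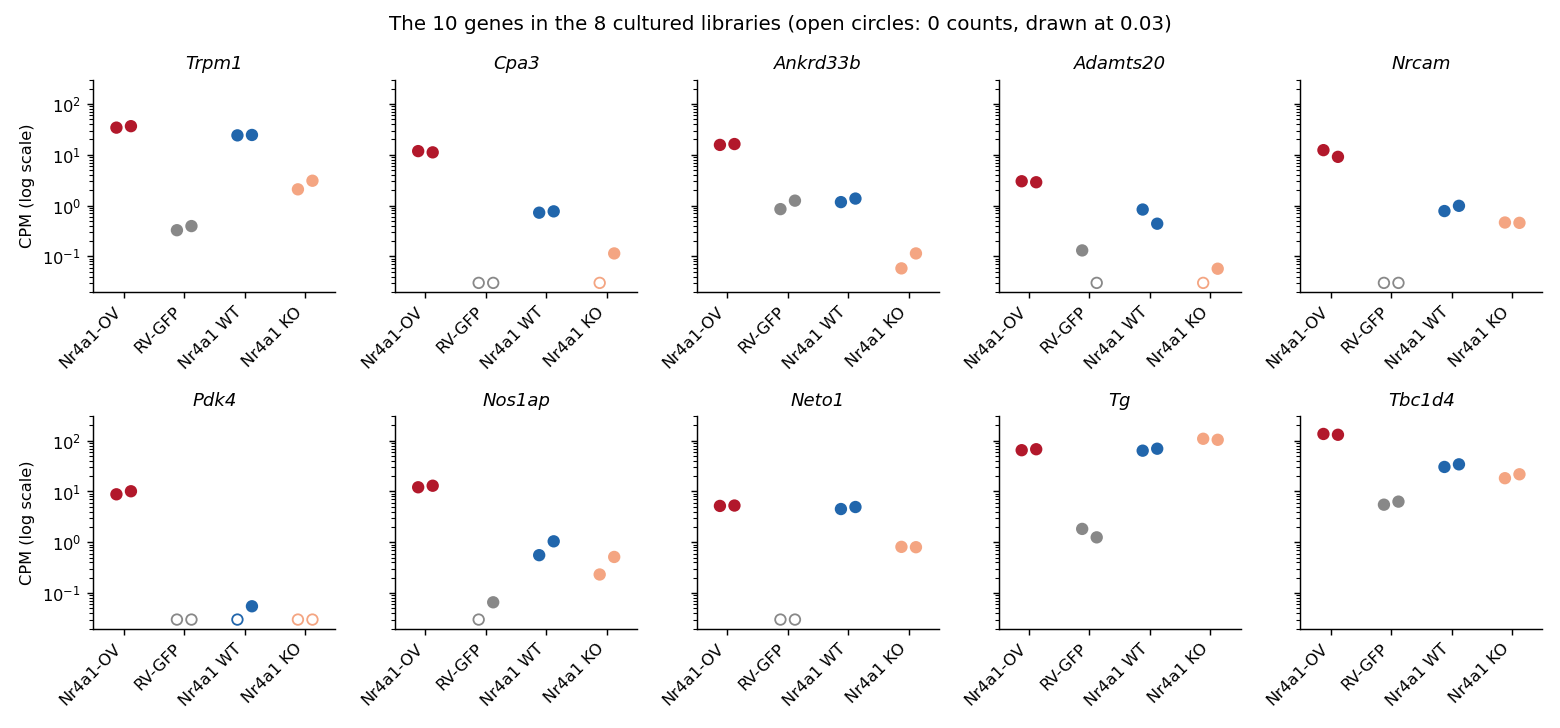
CPM (log scale) of the 10 genes in the 8 cultured libraries, 1 circle per library and 4 groups per panel, with open circles for 0 counts. Trpm1, Neto1 and Tg stand nearly as high in Nr4a1 WT as in Nr4a1-OV, Pdk4 is seen in Nr4a1-OV with a single count elsewhere, and Tg alone is higher in Nr4a1 KO than in Nr4a1 WT.

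Per length, the 10 genes spanned 0.325 RPKM (Adamts20) to 17.2 RPKM (Tbc1d4) in Nr4a1-OV with a median of 2.10, by the authors' values. The median was 0.00588 in RV-GFP, 0.319 in WT and 0.0445 in KO. The most like genes outside the list, by distance from the mean of the 10 in log2(CPM + 0.5) over the 8 libraries, were Wdpcp (distance 0.893), C1ql3, Napb, St6galnac3, Ccr8, Lima1, Gm5541 and Lhx2 (2.00). Within the list the distances ran from 2.69 for Neto1 to 10.6 for Tg. The 8 were picked as the nearest, so their smaller distances are fixed by that choice. C1ql3, which encodes a secreted synaptic protein, had 215 and 233 counts in Nr4a1-OV, 5 and 5 in RV-GFP, 36 and 43 in WT and 43 and 35 in KO. Ccr8, a chemokine receptor, had 152 and 137, 10 and 3, 96 and 81, and 29 and 40.

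To see how common such genes were, a silent class was set at no more than 10 counts in the RV-GFP libraries together and 100 or more in the Nr4a1-OV libraries together. Of 3060 genes with so few RV-GFP counts, 57 were in it, and the mirrored rule (100 or more in RV-GFP, no more than 10 in Nr4a1-OV) found 1 gene. Cpa3, Adamts20, Nrcam, Pdk4, Nos1ap and Neto1 belonged to it (6 of the 10), with Adamts20 just inside at 100 counts. Trpm1 was just outside with 11 RV-GFP counts, and Ankrd33b, Tg and Tbc1d4 were outside with 32, 47 and 180. The highest of the class beyond the 10 was Csf2rb, the beta chain shared by receptors for GM-CSF, IL-3 and IL-5, with 1859 and 1872 counts in Nr4a1-OV and 2 and 1 in RV-GFP. Csf2rb2, a close copy of it, had 341 and 330 against 1 and 0, and reads may have been split between them. Itgb8, an integrin chain that activates TGF-beta, had 593 and 573 counts against 2 and 2. Lima1, Gm7694, Napb, Rnf152 and Sptbn4 followed, at 16.2 to 34.2 CPM in Nr4a1-OV.

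The class was chosen without the antibody-activated libraries. In WT cells 11 of its 57 genes reached 100 counts and 18 had no more than 10. By edgeR with adjustment over 14994 genes, 17 of 57 were lower and 9 higher in the KO-labelled libraries than in WT (29.8% and 15.8%). Over all genes 21.6% were lower and 18.4% higher. Without the 10 genes, whose choice used this contrast, the class held 14 lower and 9 higher of 51, with a median log2 fold change of 0.04 against -0.03 over all genes. Itgb8 fell from 112 and 100 counts in WT to 24 and 15 (log2 fold change -2.38, SE 0.21, adjusted p = 1.22e-08), as did Gm7694 (-1.38) and Sptbn4 (-1.37). Napb, a vesicle fusion factor of neurons, fell as well (-0.77), and Rnf152, a ubiquitin ligase, rose from 24 and 31 to 57 and 69 counts (1.25, SE 0.22, adjusted p = 9.92e-05). Csf2rb had 5 and 11 counts in WT and 5 and 12 in KO (adjusted p = 0.848). The number higher was 4 without Nr4a1 WT replicate 1. Between the same libraries, myeloid markers (4 of 5 listed) summed to 16.3 to 17.1 CPM in KO and 5.84 to 6.53 in WT. Nearly all of it was Cd68 (15.8 against 5.61 CPM), with Lyz2, Itgam and Cd14 each at 0.401 CPM or less. Stroma and endothelium markers (3 of 3) summed to 73.1 to 76.2 and 112 to 129 CPM. Nearly all of that was Pecam1 (73.5 against 119 CPM), with Col1a1 and Col1a2 at 1.57 CPM or less. The part of these markers was not tested.

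**Figure D2:**
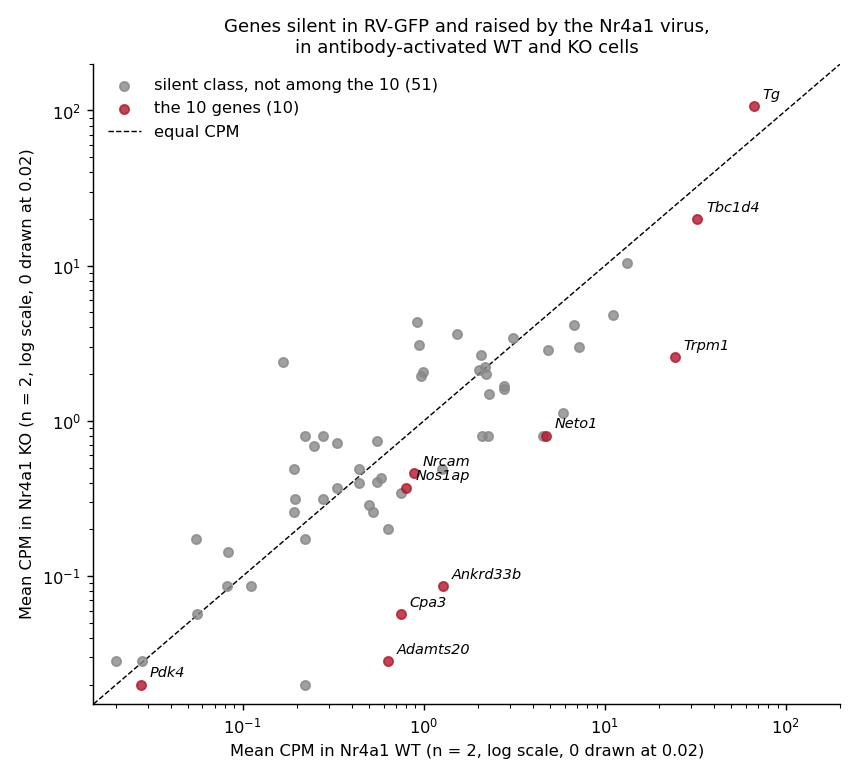
Mean CPM in cultured Nr4a1 WT (x axis) against Nr4a1 KO (y axis), both on log scales with n = 2, for the 51 silent-class genes outside the 10 (grey) and for the 10 genes (red, of which 6 are in the class). Grey points lie on both sides of the dashed line of equal CPM, and Adamts20, Cpa3, Ankrd33b, Trpm1 and Neto1 lie well below it.

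The rule of choice used the cultured contrasts, and tumour cells give separate libraries, though earlier results of these data were known when the genes were chosen. Cells sorted by their Nr4a1 reporter were set against cells sorted by the inhibitory receptor Tim-3. Of the 10 genes, 9 were listed there (not Pdk4), and 7 of the 9 were higher in Nr4a1RFP+ and 0 lower, by edgeR on recovered reads without a filter on low counts, an analysis chosen after seeing the data. All 9 fitted differences were positive, so 0 were lower at an unadjusted p under 0.05 as well. Their median log2 fold change was 2.24, against -0.00369 over all genes. Neto1 and Adamts20 held 0 reads in Tim-3+ cells and entered this fit through Nr4a1RFP+ alone. These genes could only come out higher, in the count and in the median. Over all genes so tested, 9.65% were higher and 8.56% lower. With limma on log2(RPKM + 1) and a minimum of 1 RPKM, 3 of the 10 could be tested and 3 were higher, against 9.08% of all genes higher and 8.61% lower. The minimum was needed in only 2 libraries, and Trpm1 passed it through Nr4a1RFP+ alone, so this count is partly set by the filter; with 1 RPKM in every library 2 were called. Nr4a1 RNA stood at 114 ± 0.995 RPKM in the Nr4a1RFP+ sort against 128 ± 4.88 in the Tim-3+ sort (SD, n = 2 each, limma adjusted p = 0.364). Its part in these differences was not tested.

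Trpm1 stood at 1.52 and 1.62 RPKM in Nr4a1RFP+ cells against 0.278 and 0.375 in the Tim-3+ sort, a log2 fold change of 2.24 on recovered reads (SE 0.19, edgeR adjusted p = 9.90e-05). Ankrd33b stood at 0.845 and 1.54 against 0.0335 and 0.139 RPKM, the largest fitted change among members with reads in both groups (3.67, SE 0.48, edgeR adjusted p = 0.00104), and the fit gave 5.11 without Tim-3+ replicate 2. The groups did not overlap for either gene, and the share of all genes without overlap between these sorts is not given. Nos1ap, at 0.513 and 0.482 against 0.0876 and 0.0720 RPKM, was also higher (2.63, SE 0.32, edgeR adjusted p = 0.000760). Tbc1d4 stood at 17.3 ± 2.30 against 5.69 ± 0.353 RPKM (SD, n = 2 each), with 3402 and 4326 recovered reads in Nr4a1RFP+ cells and no overlap (1.59, SE 0.13, edgeR adjusted p = 0.000101), and Tg at 7.77 and 8.15 against 4.03 and 4.67 RPKM (0.86, SE 0.13, edgeR adjusted p = 0.00197). Both remained the most abundant of the 9 per length in each sort.

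Neto1 was at 24 and 31 reads in Nr4a1RFP+ and 0 and 0 in Tim-3+ cells, at least 7.46-fold higher (edgeR adjusted p = 0.00359). Adamts20, at 15 and 11 against 0 and 0 reads, was at least 3.56-fold higher (edgeR adjusted p = 0.0188), a call that ended without Nr4a1RFP+ replicate 2 (adjusted p = 0.0681). The limma call for Tg also ended without that library (log2 fold change 0.72, adjusted p = 0.0734). Cpa3 overlapped, at 1.26 and 0.510 against 0.773 and 0.229 RPKM (0.87, SE 0.64, edgeR adjusted p = 0.409), and passed only without Tim-3+ replicate 1 (1.93, adjusted p = 0.0126). Nrcam, at 4 and 18 against 2 and 5 reads, did not pass either (edgeR adjusted p = 0.342), and its libraries overlapped.

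The silent class showed the same direction: 20 of the 41 genes tested were higher in Nr4a1RFP+ and 0 lower, and without the 10 genes 17 of 36 were higher. Of the 20, Neto1 and Adamts20 entered the fit through Nr4a1RFP+ alone. Of all genes in that unfiltered fit, 9.65% were higher and 8.56% lower. At an unadjusted p under 0.05, 2 were lower, and the share of all genes at that threshold is not given. With a filter on low counts 1 of 35 was called lower and 20 higher, where 10.3% of all genes were higher. Limma called 0 of 14 lower, against 8.61% of all genes. Among those 14, genes such as Napb, C1ql3 and Itgb8 passed the RPKM minimum through Nr4a1RFP+ alone. On recovered reads, the number of class genes called higher fell without Nr4a1RFP+ replicate 2, as did the share of all genes called higher. Napb stood at 2.78 to 3.84 RPKM in Nr4a1RFP+ and 0.0208 to 0.113 in Tim-3+ cells (log2 fold change 5.47, SE 0.41, edgeR adjusted p = 6.07e-05). C1ql3 stood at 1.12 to 1.51 against 0.00 to 0.0274 RPKM, and Itgb8 at 1.85 to 2.42 against 0.368 to 0.380 (2.50, edgeR adjusted p = 7.29e-05). Csf2rb, highest of the class with the virus, was at 0.0508 to 0.0682 against 0.0873 to 0.358 RPKM (adjusted p = 0.0710). Beside these results, 5 of 5 myeloid markers summed to 44.9 to 54.1 RPKM in Nr4a1RFP+ and 22.5 to 23.5 in Tim-3+ cells. Stroma and endothelium markers (3 of 3 listed) summed to 11.1 to 11.4 and 5.54 to 6.05 RPKM. NK and innate markers (2 of 3 listed) summed to 3.43 to 4.97 and 31.6 to 38.6. Their part in the differences was not tested. For Trpm1, the melanocyte genes Tyr, Tyrp1 and Dct were not listed, Mlana was at 0.134 RPKM or less in every library, and Pmel had 220 and 204 recovered reads against 78 and 99.

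**Figure D3:**
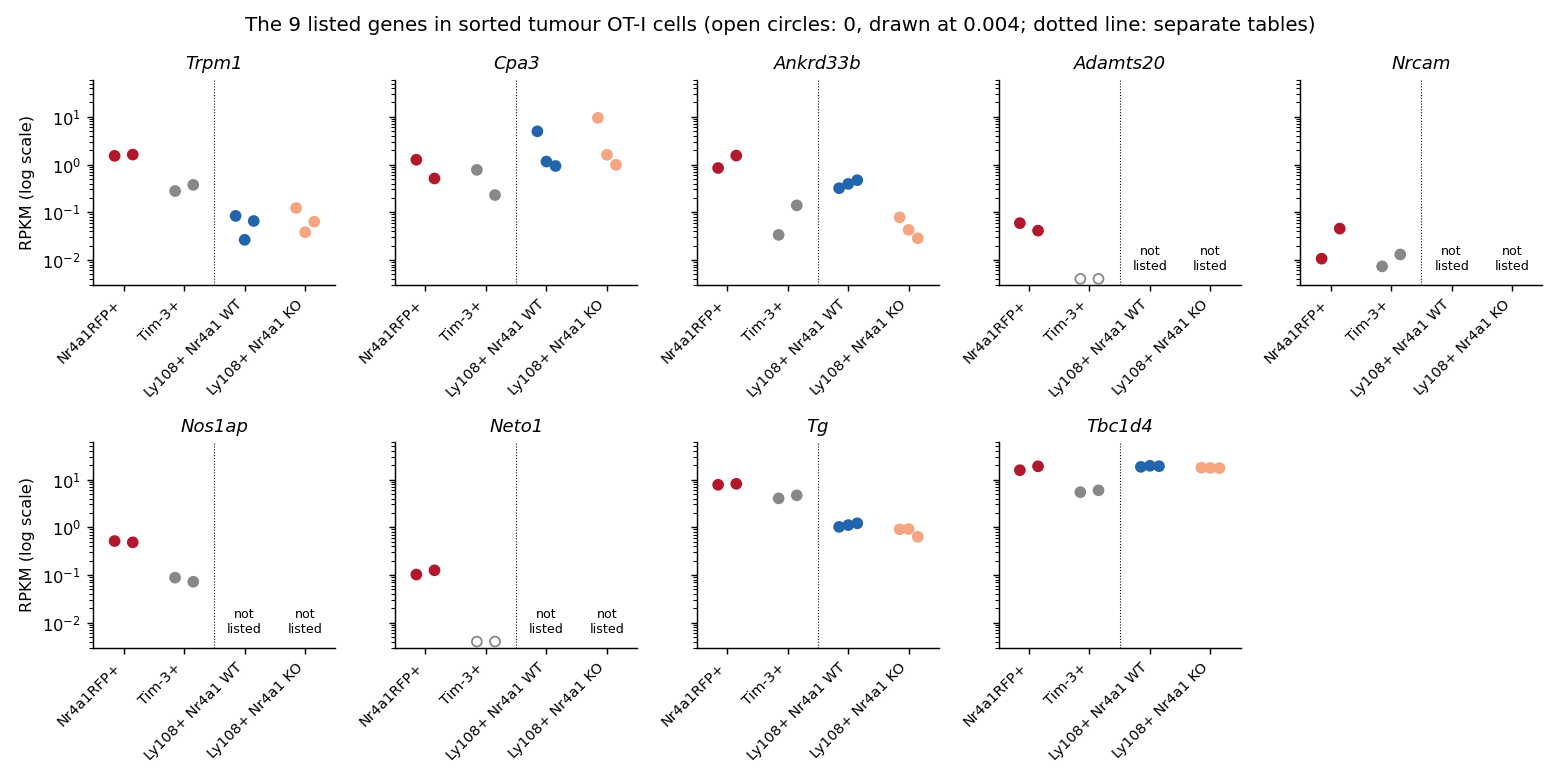
RPKM (log scale) of the 9 genes listed in tumour OT-I cells, 1 circle per library, in 2 Nr4a1RFP+, 2 Tim-3+, 3 Ly108+ Nr4a1 WT and 3 Ly108+ Nr4a1 KO libraries, with open circles for 0. The dotted line separates tables that were normalised apart. Nr4a1RFP+ lies above Tim-3+ for every gene but Cpa3 and Nrcam, while Ankrd33b is the gene with a clear gap between the Ly108+ groups. The share of all genes that separate in this way is not given, so nothing is read from the number that do.

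Ly108 marks stem-like T cells, and the Ly108+ libraries compare the Nr4a1 WT and KO labels within tumours. Trpm1, Cpa3, Ankrd33b, Tg and Tbc1d4 were listed there. Ankrd33b was lower in the KO-labelled libraries, at 0.0782, 0.0426 and 0.0284 RPKM against 0.319, 0.392 and 0.470 in WT (11, 6 and 4 against 43, 53 and 64 reads). Its log2 fold change was -2.96 (SE 0.35, edgeR on recovered reads without a filter, adjusted p = 0.000319), and the authors' deposited table gave -2.99. It was 1 of 5 lower and 0 of 5 higher, where 4.59% of all genes were lower and 2.77% higher. At an unadjusted p under 0.05, 3 of 5 were lower and 0 higher. Here and below, the share of all genes at that unadjusted threshold is not given, so nothing is read from such counts.

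The other 4 genes did not pass. Trpm1, so high in Nr4a1RFP+ cells, had 29, 9 and 15 reads in KO and 19, 6 and 15 in WT (edgeR adjusted p = 0.713). Tbc1d4 stood at 17.4 to 17.7 RPKM in KO and 18.5 to 19.4 in WT (limma adjusted p = 0.189). Tg stood at 0.905, 0.918 and 0.631 RPKM in KO and 1.02, 1.11 and 1.21 in WT, without overlap (limma adjusted p = 0.226). On recovered reads Tg passed without KO replicate 1 (log2 fold change -0.52, adjusted p = 0.0370). Limma, which could test Cpa3, Tg and Tbc1d4, called 0 of 3 (1 at an unadjusted p under 0.05), where 2.04% of all genes were higher and 2.41% lower.

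Cpa3 differed more between replicates than between labels: replicate 1 held 232 reads in KO and 116 in WT, and the other 4 libraries held 22 to 39. Of the mast cell and basophil markers, Kit and Hdc were listed. Kit had 807 reads in KO replicate 1 and 861 in WT replicate 1, each the lowest of its group, and Hdc, the enzyme that makes histamine, had 107 and 88, again the lowest. The other 8 of 10 mast cell and basophil markers were not listed. Over the Ly108+ libraries Kit held 807 to 1169 reads and Cpa3 22 to 232. The part of mast cells in the Cpa3 reads was not tested. Of the silent class, 24 genes could be tested on recovered reads without a filter, of which 2 were higher and 0 lower (4 and 3 at an unadjusted p under 0.05). These are 8.33% and 0%, against 2.77% and 4.59% of all genes. Limma called 0 of 6, where 2.04% of all genes were higher and 2.41% lower. Csf2rb was one of the 2 higher on recovered reads (log2 fold change 1.31, SE 0.30, edgeR adjusted p = 0.0214). Beside these, myeloid markers summed to 88.6 to 119 RPKM in KO and 55.4 to 70.9 in WT, and stroma and endothelium markers to 28.7 to 34.6 and 24.4 to 25.3, and their part was not tested.

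Other genes of the pathways and families of the 10 were then read in culture, from 10 lists. Of 43 such genes tested in Nr4a1-OV against RV-GFP, 18 rose, 12 fell and 13 did not pass. Over all 14994 genes 31.3% rose and 29.6% fell, and the median log2 fold change was -0.01 over the 43 and 0.02 over all. In KO against WT, 8 rose and 9 fell (medians -0.07 and -0.03), and 39.5% were called against 40.1% of all genes.

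Among mast cell and basophil genes, 3 of 15 were in the table and Kit, the receptor for stem cell factor, rose with the virus from 118 and 148 to 1291 and 1170 counts (log2 fold change 3.05, SE 0.14, edgeR adjusted p = 1.60e-13). Kit also rose in the KO-labelled cells (2.16, SE 0.15), the opposite of Cpa3, while Hdc and Gata1, a transcription factor of mast cells, did not pass in either comparison. Of 14 thyroid hormone genes only Dio2, a deiodinase, was in the table; it was not called with the virus (adjusted p = 0.0794) and fell in KO (-2.37, SE 0.36, edgeR adjusted p = 1.85e-05). Thyroid peroxidase, the TSH receptor, the iodide transporter and Pax8 were not in it. Of 11 melanocyte genes, Pmel rose with the virus (7.79 against 2.16 CPM, log2 fold change 1.85, SE 0.19) and fell in KO (-0.94, SE 0.21). Mitf, the melanocyte and mast cell transcription factor, rose at 12 and 9 against 1 and 4 counts, a call that ended without Nr4a1-OV replicate 1 (adjusted p = 0.0900), without RV-GFP replicate 1 (0.181) and with DESeq2 (0.0653). Among the other TRPM channels, Trpm4 rose (0.86) and Trpm6 fell from 17 and 20 to 3 and 4 counts, and Trpm7 fell slightly in KO (-0.33).

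Of 13 genes of the pyruvate dehydrogenase complex and its regulators, 3 rose and 4 fell with the virus. The rises were the kinase Pdk2 (0.71, SE 0.17), the phosphatase Pdp1 (0.99, SE 0.07) and its regulatory subunit Pdpr (0.47, SE 0.08), while the other phosphatase, Pdp2, fell (-0.46, SE 0.09). Pdk1 and Pdk3, both far above Pdk4 in counts, did not pass (log2 fold changes 0.12 and -0.07, adjusted p = 0.153 and 0.361), and Pdha1, a subunit that these kinases phosphorylate, fell (-0.38, SE 0.06). In KO, Pdk3 (-0.47, SE 0.06) and Pdpr (-0.60, SE 0.09) fell most clearly. Of 8 glucose transport genes in the table, Tbc1d1, the nearest relative of Tbc1d4, rose with the virus (0.65, SE 0.08), as did Lnpep (0.58), an aminopeptidase of glucose transporter vesicles, and 5 fell, with Akt2 at -0.34. The falls of Rab10, Rab14 and Akt1 and the rise of Rab8a each lost their call without 1 library (adjusted p = 0.252, 0.0828, 0.0781 and 0.141 at the highest). Slc2a1, the main glucose transporter of T cells, was at 137 and 166 CPM (-0.28), a call that ended without Nr4a1-OV replicate 1 (adjusted p = 0.0737), without RV-GFP replicate 2 (0.0563) and with DESeq2 (0.155).

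Among L1 and contactin adhesion genes, semaphorin co-receptors included, 3 of 4 rose with the virus and 1 fell. Nrp2 went from 2 and 1 counts to 237 and 240 (edgeR adjusted p = 4.39e-14), L1cam from 43 and 34 to 277 and 280 (log2 fold change 2.70, SE 0.16), and Nrp1 fell from 4314 and 3976 to 1418 and 1330 (-1.75, SE 0.07). Chl1, at 17 and 14 against 5 and 6 counts, lost its call without any 1 of the 4 libraries (adjusted p = 0.0635 to 0.178) and with DESeq2 (0.166). Of the genes near Neto1, the kainate receptor subunit Grik5 rose (0.96, SE 0.10) and Neto2 did not pass (-0.18, adjusted p = 0.0601). Of those near Nos1ap, Rasd1 (1.32, SE 0.30) and Scrib (0.65, SE 0.06), both of which encode known binding partners of it, rose. In KO, Dlg4, a scaffold of neuronal nitric oxide synthase, rose (0.84, SE 0.07) and Scrib fell (-0.36). Of the ADAMTS proteases, Adamts14 rose with the virus (1.48, SE 0.12) and more in KO (3.13, SE 0.11), from 104 and 104 to 887 and 867 counts, whereas Adamts20 was at 0 and 1 there.

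**Figure D4:**
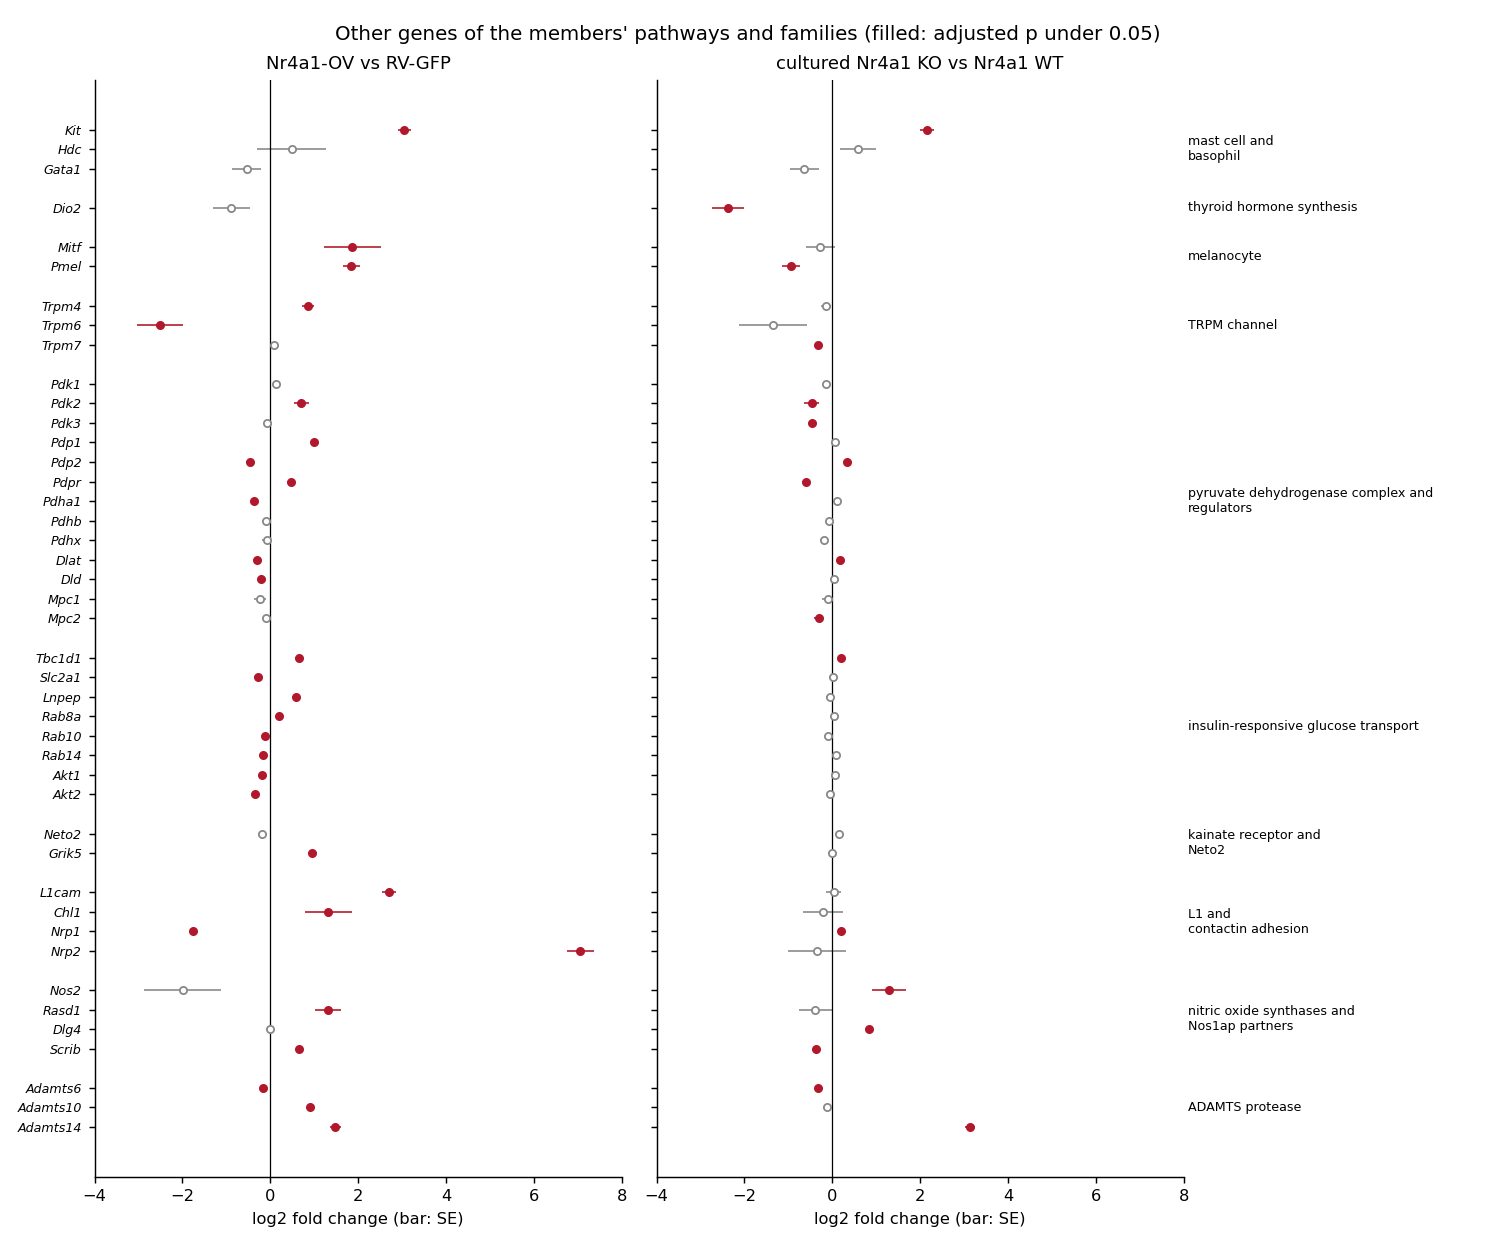
Log2 fold changes with SE bars of 43 genes from the pathways and families of the 10, in Nr4a1-OV against RV-GFP (left) and cultured Nr4a1 KO against WT (right), filled where the edgeR adjusted p was under 0.05. Points lie on both sides of 0 in both panels, with Nrp2, Kit and L1cam farthest to the right on the left panel and Adamts14 and Kit on the right panel.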

How the data were processed

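The data are 18 RNA sequencing libraries of mouse CD8+ T cells. Per the submitters' processing notes, reads were trimmed with Trim Galore and aligned to mm10 with HISAT2, and edgeR and DESeq2 were used, versions not stated; the sources used here do not give the read counter or the gene annotation. Per the labels, the library kit was that of BGI or Smartseq2, without saying for which samples. The authors deposited read counts per gene for culture, and RPKM values (scaled by gene length and library size) for all libraries, with log2 fold changes and p-values of their own comparisons, which were used only where named. Columns named for exhausted cells were taken as Tim-3+, the sort the series describes beside Nr4a1RFP+. A further 2 columns with no labelled library were not used.

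Counts were tested with edgeR 4.0.16 (R 4.3.3; filterByExpr, TMM, quasi-likelihood F tests, 1 model of 8 cultured libraries) and RPKM with limma 3.58.1 (trend, log2 of RPKM plus a pseudocount of 1, genes at 1 RPKM or more in as many libraries as the smaller group). Fold changes on that scale understate changes of low genes. Tests were two-sided with Benjamini-Hochberg adjustment over all genes and a threshold of 0.05. Whole reads were recovered from tumour RPKM for 88.8% and 95.6% of genes. Of values under 200 reads, 97.8% to 98.9% were whole within 0.05, and edgeR called 2205 and 978 genes on them (Nr4a1RFP+ against Tim-3+, and Ly108+ KO against WT). Tables normalised apart were not compared. Scripts were tested on simulated data. Ratios of counts have exact 95% intervals, and a group at 0 was set to 3 counts per library.

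The 10 genes, the lists and the class were chosen with earlier results of these data known. Besides the 10, genes were named by rule: 8 nearest by distance, the 8 highest of the silent class, per list up to 3 called with the virus and up to 2 in KO by smallest p, and Nr4a1 and defining markers. Others named beside them (Pdk1, Pdk3, Hdc, Gata1, Mitf, Chl1, Neto2 and further list members) were chosen after their values were seen. DESeq2 1.42.0, other scalings, filters, pseudocounts, replicate blocks and leaving out each library were alternatives. The AP-1, CRE and TATA motifs, CpG counts, unfiltered recovered reads and the class in tumour cells were chosen after seeing the data. Plots used matplotlib 3.10.9 (Python 3.11.15).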

Additional observations from a re-analysis of the deposited data

Results flagged for a closer look

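Tg was higher in both cultured KO-labelled libraries than in both WT libraries (109 and 104 against 63.5 and 69.5 CPM, a log2 ratio of means of 0.68) and lower in all 3 Ly108+ KO-labelled tumour libraries than in all 3 WT libraries (0.818 ± 0.162 against 1.11 ± 0.0961 RPKM, SD, n = 3). The directions were opposite in every library. The difference between the settings was not tested, because the tables were normalised apart, and the tumour difference did not pass the threshold by itself (limma adjusted p = 0.226).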

How the results depend on the processing

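Over the 10 genes, the median log2 ratio of Nr4a1-OV to RV-GFP was 5.51 and lay between 5.34 and 5.62 when each library was left out, with every group mean set to at least 3 counts per library. For KO over WT it was -1.88 over 9 genes (-2.07 to -1.48). The choice of the genes used these contrasts, so both medians and their ranges are a description only. Of the members, 3 were called in Nr4a1RFP+ against Tim-3+ by limma, 6 without a filter on low values, 7 on recovered reads with or without a filter, and 2 to 8 when a library was left out. In the Ly108+ comparison 0 were called by limma, 1 without a filter, 1 on recovered reads with or without a filter, and 0 to 2 when a library was left out; fewer genes pass the filter than are listed. Genes called over the whole table were 1682 by limma in Nr4a1RFP+ against Tim-3+ and 1794 without a filter on low values. On recovered reads they were 2205, or 2189 without a filter. Without one Nr4a1RFP+ library there were 723 to 928 (988 to 1219 on recovered reads), and without one Tim-3+ library 3037 to 3421 (3703 to 3914). In Ly108+ KO against WT there were 501 by limma, 478 without a filter on low values, 978 on recovered reads and 957 on those without a filter. Without one KO library there were 99 to 1686 (306 to 2566 on recovered reads), the highest without KO replicate 1, and without one WT library 69 to 152 (326 to 584). In that comparison Cpa3 turned without KO replicate 1 (log2 fold change -0.36 by limma and -0.85 on recovered reads, with highest values of 0.89 and 1.94 without WT replicate 1), as did Trpm1 without KO replicate 1 (-0.20) and without WT replicate 2 (-0.00104), none of them called; the cause was not tested.

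Of the silent class, the number lower in cultured KO was 17 (12 to 17 when a library was left out), and 8, 28 and 5 with a limit of 3 RV-GFP counts, or with 50 or 300 Nr4a1-OV counts, out of 35, 115 and 20 genes. The number higher was 9, and 3, 16 and 4 under those limits. Over all genes 21.6% were lower and 18.4% higher, whatever the limit on the class. In Nr4a1RFP+ cells 20 were higher (13 to 22), and 10 by limma on RPKM, where 14 could be tested, some of which passed the minimum through Nr4a1RFP+ alone. The windows of the 10 genes held NBRE in 0 genes, and its core, the AP-1 motif and the TATA motif in 1 gene each, in either window length. Genes called in culture stayed within 1.5 times of 9125 and 6007 under every alternative run, as did the 30 and 17 list genes.

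Replicate numbers are shared between groups, but the labels do not say that they mark pairs. Deviations of same-numbered libraries correlated at r = 0.222 for the viruses, 0.129 for cultured KO and WT, 0.226 for Nr4a1RFP+ and Tim-3+, and 0.277, 0.158 and 0.0193 for the Ly108+ groups, where KO replicate 3 correlated best with WT replicate 2 (0.192). With the replicate block, 9803 and 5871 genes were called in culture, 2143 and 485 in the tumour comparisons, and 3 and 0 members there. On recovered reads with the block, 3034 genes and 7 members were called in Nr4a1RFP+ against Tim-3+. Where a left-out library left 1 in a group, that one was assumed to vary like the others. Adamts20 and Nrcam had few reads in tumour cells (26 and 22 over the Nr4a1RFP+ libraries), and the part of depth in their results was not tested.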
